A study of Rattus norvegicus with 6 samples.

Results

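The genes described here are the matrix metalloproteinases (MMPs), the ADAMTS proteases, their tissue inhibitors (TIMPs) and the plasminogen activators Plat and Plau with the receptor Plaur. The members follow from a rule on gene names that uses no measured value, although the gene families were picked for description with earlier results of these data known. In all, 43 of the 33455 genes in the deposited count table carry such a name: 19 MMPs, 17 ADAMTS genes, 4 TIMPs and the 3 genes of plasminogen activation. Expression was measured in the centre of a contusion injury at the T9 segment of wild type rats. One group received a gel and ultrasound (Gel+US, n = 3) and the other a piezoelectric gel and ultrasound (Piezo Gel+US, n = 3), so the injury and the ultrasound of 10 min a day over 4 weeks are common to both. A group with neither ultrasound nor gel, or without injury, was not analysed here, and no source used here gives the animals' age or sex. The ultrasound was given at 100 Hz and 1.0 W/cm2 over the implant, and about 5 mm3 of tissue was taken. The comparison asks which of these transcripts differed in the lesion when the gel was piezoelectric.

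MMPs are zinc-dependent enzymes, made as inactive precursors, that cut collagens, laminins, proteoglycans and cytokines. ADAMTS proteases are secreted relatives that cut procollagens, fibrillin-associated proteins or the chondroitin sulfate proteoglycans aggrecan, brevican and versican, which limit axon growth in a spinal cord scar. TIMPs block the active site of MMPs, and Timp3 also blocks ADAMTS proteases. The plasminogen activators make plasmin, a serine protease that degrades fibrin and activates several MMP precursors. In the injured cord these enzymes are known for opening the blood-spinal cord barrier early on and for reshaping the scar later.

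Libraries held 17212653 to 21436820 counts, and 37 of the 43 genes passed the low-count filter (13 of 19 MMPs and every ADAMTS, TIMP and plasminogen activation gene). Levels are CPM, the counts of a gene scaled to a common library total, with library sizes scaled by trimmed mean of M-values (TMM), and levels of different genes are set side by side only as CPM per kb of gene model. Neuron markers (12 of 12 tested) and oligodendrocyte markers (9 of 10 matched, all tested) had summed levels of 1896 to 17750 and 8787 to 20553 CPM, so the labelled spinal cord tissue was present in every library. The libraries differed in makeup within groups. Summed Schwann cell markers (8 of 11 matched, none at 0 in all libraries) ran from 4371 to 7118 CPM in Gel+US and from 7101 to 70290 CPM in Piezo Gel+US, where replicate 2 was the highest. All 8 were above a log2 fold change of 0 (median 1.73), 6 had an unadjusted p below 0.05 and 0 were called by edgeR. Summed fibroblast markers (10 of 10, none at 0 in all libraries) ran from 1207 to 8448 CPM in Gel+US and from 1693 to 6515 CPM in Piezo Gel+US, with replicate 2 the highest of each group. Neutrophil markers (8 of 12 matched) summed to 8.67 CPM in Gel+US replicate 3 and to 95.9 to 282 CPM in the other 5 libraries. In bulk tissue, fewer cells of a type and less RNA per cell cannot be told apart.

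Among the 43 genes, the inhibitors were more abundant per kb than the MMPs and the ADAMTS proteases. Mmp2, Adamts1 and Adamts5 are not among the 43, so the shares below leave them out. TIMP genes took 50.4% to 61.5% of the summed CPM per kb of all 43 genes in each library, MMPs 16.4% to 26.9%, ADAMTS genes 9.26% to 15.8% and the plasminogen activation genes 8.28% to 14.1%. Over the 6 libraries Timp2 averaged 176 CPM per kb, Timp3 84.4, Plat 58.1, Mmp15 48.4, Timp1 46.5 and Mmp14 26.3. At the other end of the tested genes were Adamts18 at 0.138 and Adamts16 at 0.229 CPM per kb.

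**Figure D1:**
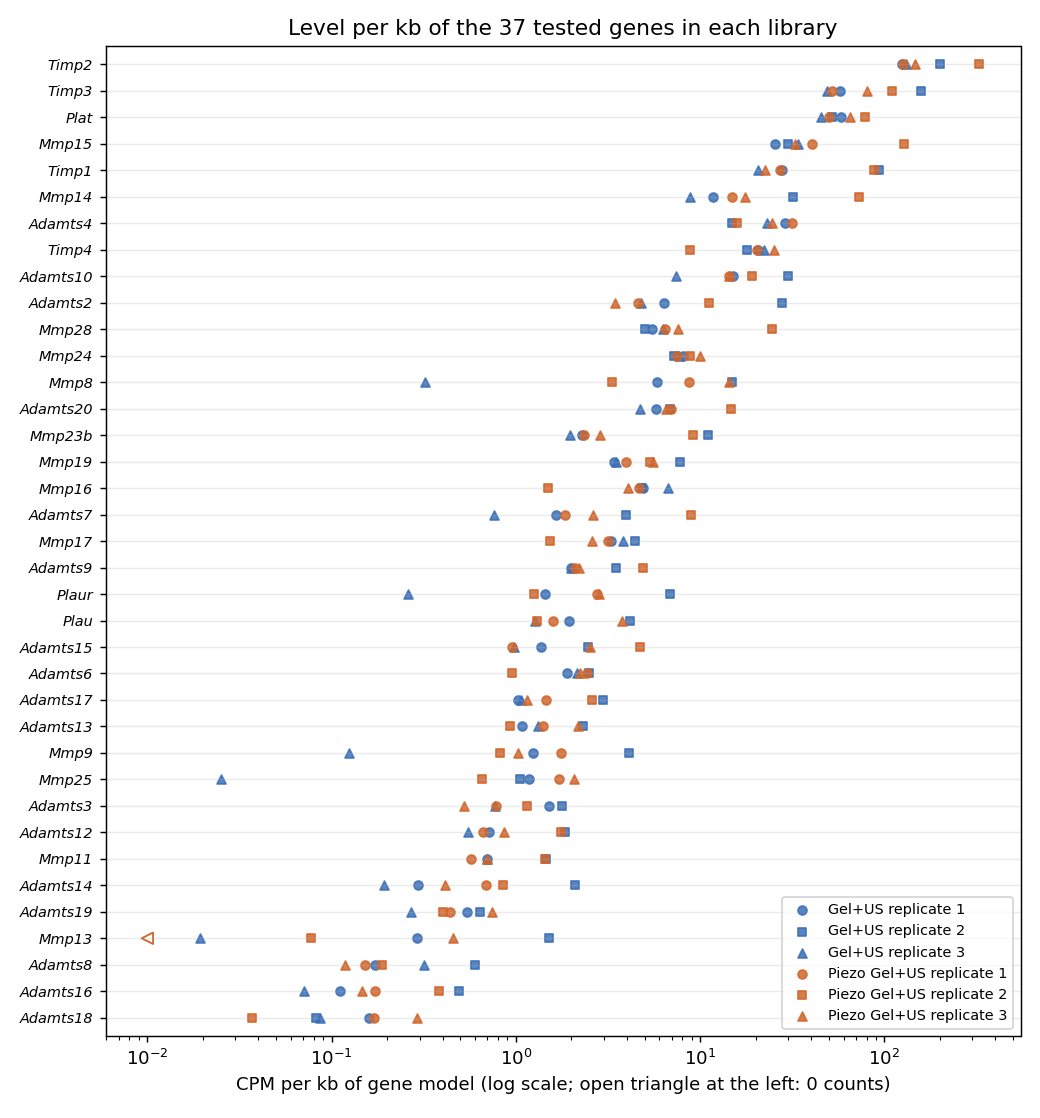
Level of each of the 37 tested genes in each library as CPM per kb of gene model on a log axis, blue for Gel+US and orange for Piezo Gel+US, with a marker shape for each replicate number. The genes are ordered by mean level, from Adamts18 at 0.138 to Timp2 at 176 CPM per kb, and the open triangle marks the 0 counts of Mmp13 in Piezo Gel+US replicate 1.

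No gene of the set differed between the groups by the test. By the edgeR quasi-likelihood test with Benjamini-Hochberg adjustment over 17066 genes, 0 of the 37 were called at an adjusted p below 0.05 (background 0.00% of all genes tested), and their smallest adjusted p was 0.994. Without adjustment 0 of 37 had p below 0.05, beside 2.10% of all genes, and DESeq2 gave 0 calls and 2 such genes, Mmp15 and Mmp28, beside 2.81% of all genes under DESeq2. A log2 fold change above 0, meaning higher in Piezo Gel+US, was found for 19 of 37 (51.4%, beside 47.1% of all genes), with 52.9% of all genes below 0, and the median was 0.02 beside -0.02 over all genes. A log2 fold change above 1 was found for 4 of the 37, beside 2.26% of all genes, and one below -1 for 3, beside 2.63% of all genes. Together these were 18.9% of the 37. With library totals in place of TMM factors 15 were above 0 and 22 below. With the replicate number as a block 25 were above 0 and 12 below, the median was 0.14 beside -0.01 over all genes, and 4 of 37 had an unadjusted p below 0.05, beside 5.78% of all genes. Without Gel+US replicate 2 the count above 0 was 30 and the median 0.59, and without Gel+US replicate 3 they were 13 and -0.24. The groups did not overlap for 3 genes, Mmp28, Mmp16 and Mmp17 (8.11% of the 37, beside 6.81% of all genes). Mmp28 was the higher one, beside 4.08% of all genes, and Mmp16 and Mmp17 were the lower ones, beside 2.73%. The 95% interval of every tested gene included 0.

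**Figure D2:**
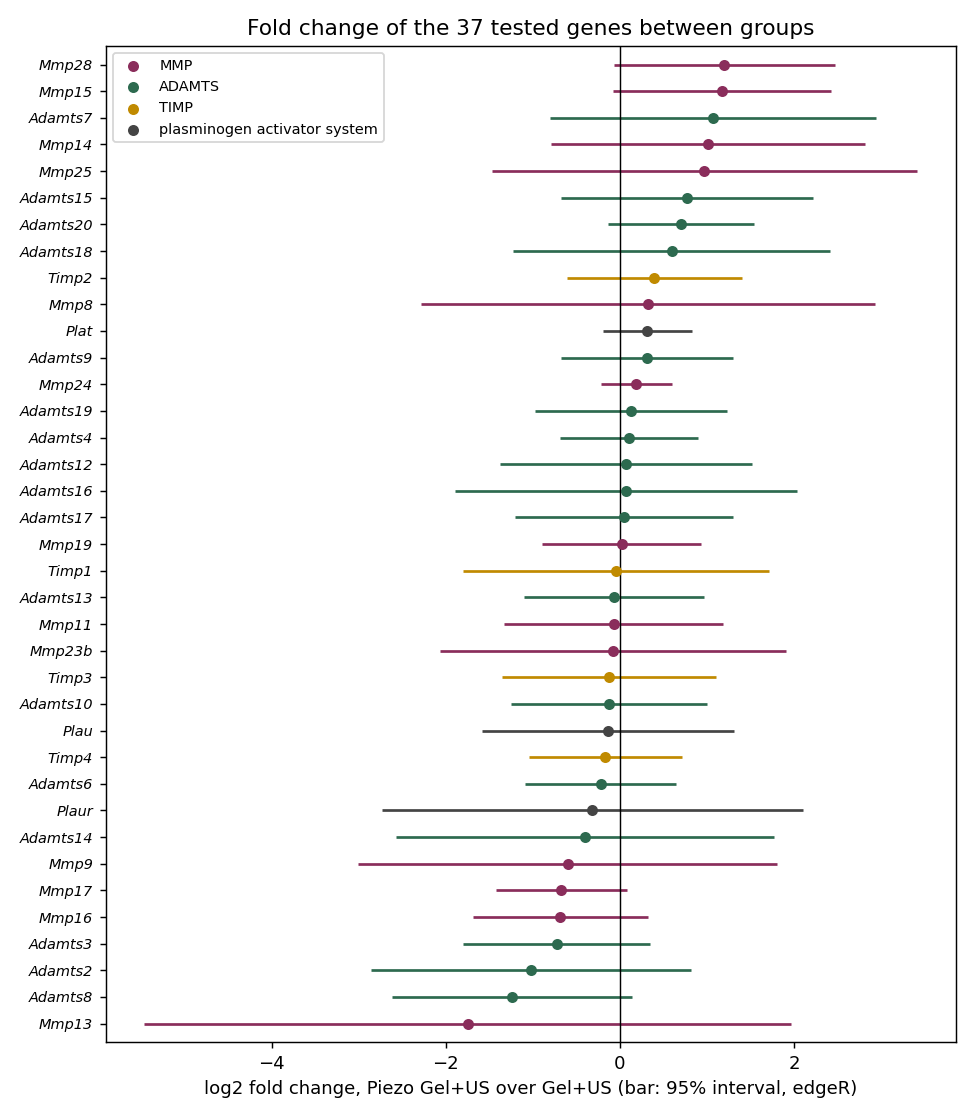
Log2 fold change of Piezo Gel+US over Gel+US for the 37 tested genes, with 95% intervals from the edgeR fit and colours for the 4 classes. All intervals cross 0, and the points run from -1.75 for Mmp13 to 1.201 for Mmp28.

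The membrane-bound Mmp15 and Mmp14 were the most abundant MMPs per kb and lay highest in Piezo Gel+US replicate 2, where Mmp16 and Mmp17 lay lowest. Of the 6 membrane-bound MMPs tested, 4 had a log2 fold change above 0 and 2 below (median 0.58), and 0 were called. Mmp15, a membrane-anchored protease also called MT2-MMP, measured 97.05, 114.5 and 130.2 CPM in Gel+US replicates 1 to 3 and 155, 489 and 126 CPM in Piezo Gel+US. The value of Piezo Gel+US replicate 2 stood far above the other 5, and the groups overlapped through Gel+US replicate 3 and Piezo Gel+US replicate 3. The log2 fold change was 1.17 (95% interval -0.081 to 2.43), and 0.29 without Piezo Gel+US replicate 2. Mmp14, or MT1-MMP, the cell-surface collagenase that activates other MMP precursors with the help of Timp2, measured 44.3, 120 and 33.0 CPM in Gel+US and 56.1, 274 and 66.2 CPM in Piezo Gel+US. Both replicates 2 were high, and the groups overlapped. Between groups the log2 fold change was 1.01 (interval -0.80 to 2.81), and -0.12 without Piezo Gel+US replicate 2. Within replicate numbers Piezo Gel+US was the higher library in 3 of 3 pairs, as it was for Timp2, Adamts4, Mmp28, Adamts20, Adamts7 and Adamts9. The share of all genes with such pairs is not given here. The fit with the replicate block gave 0.85 for Mmp14 (edgeR unadjusted p 0.0079, adjusted p 0.855). In that fit 5.78% of all genes had an unadjusted p below 0.05 by edgeR.

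Mmp28, or epilysin, a secreted MMP, measured 10.8, 9.89 and 12.3 CPM in Gel+US and 12.6, 48.5 and 14.9 CPM in Piezo Gel+US. Its groups did not overlap, although Gel+US replicate 3 and Piezo Gel+US replicate 1 were nearly equal (246 and 237 counts). The log2 fold change was 1.201 (interval -0.063 to 2.47, unadjusted p 0.0593 and adjusted p 0.994 by edgeR), and 0.31 without Piezo Gel+US replicate 2. Of the 37 genes, 5 were at least 2 times higher in Piezo Gel+US replicate 2 than in the next library, beside 2.78% of all genes: Mmp15, Mmp14, Mmp28, Adamts20 and Adamts7. The summed Schwann cell markers given above were highest in the same library, 70290 CPM against 4371 to 12812 CPM in the other 5. Ngfr, one of these markers, was higher in Gel+US replicate 2 (38.3 CPM) than in Piezo Gel+US replicate 2 (33.7 CPM). Skeletal muscle sums (104.5 CPM against 6.62 to 26.4 CPM) and endothelium sums (1202 CPM against 636 to 1100 CPM) were also highest in Piezo Gel+US replicate 2. The part of these lists in these values was not tested.

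Mmp16 and Mmp17 ran the other way. Mmp16, or MT3-MMP, which is anchored like Mmp14, measured 21.5, 21.3 and 29.4 CPM in Gel+US and 20.5, 6.59 and 17.9 CPM in Piezo Gel+US. Mmp17, or MT4-MMP, which is held by a lipid anchor, measured 10.6, 14.4 and 12.3 CPM in Gel+US and 10.2, 4.93 and 8.33 CPM in Piezo Gel+US. In both genes the groups did not overlap, Piezo Gel+US replicate 2 was lowest and replicate 1 lay just under the lowest Gel+US library. The log2 fold changes were -0.68 for Mmp16 (interval -1.69 to 0.32) and -0.67 for Mmp17 (interval -1.42 to 0.079), and -0.34 and -0.44 without Piezo Gel+US replicate 2. Summed neuron markers were also lowest in that library, 1896 CPM against 2470 to 17750 CPM in the others. The sums of oligodendrocyte (8787 CPM), astrocyte (2084 CPM), microglia and macrophage (244 CPM) and ependymal markers (39.6 CPM) were lowest there as well, and the part of these lists was not tested. Mmp24, or MT5-MMP, a neuronal member of the family, was the steadiest of the 37, from 35.8 CPM in Gel+US replicate 2 to 49.3 CPM in Piezo Gel+US replicate 3, with a log2 fold change of 0.19 (interval -0.22 to 0.60).

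**Figure D3:**
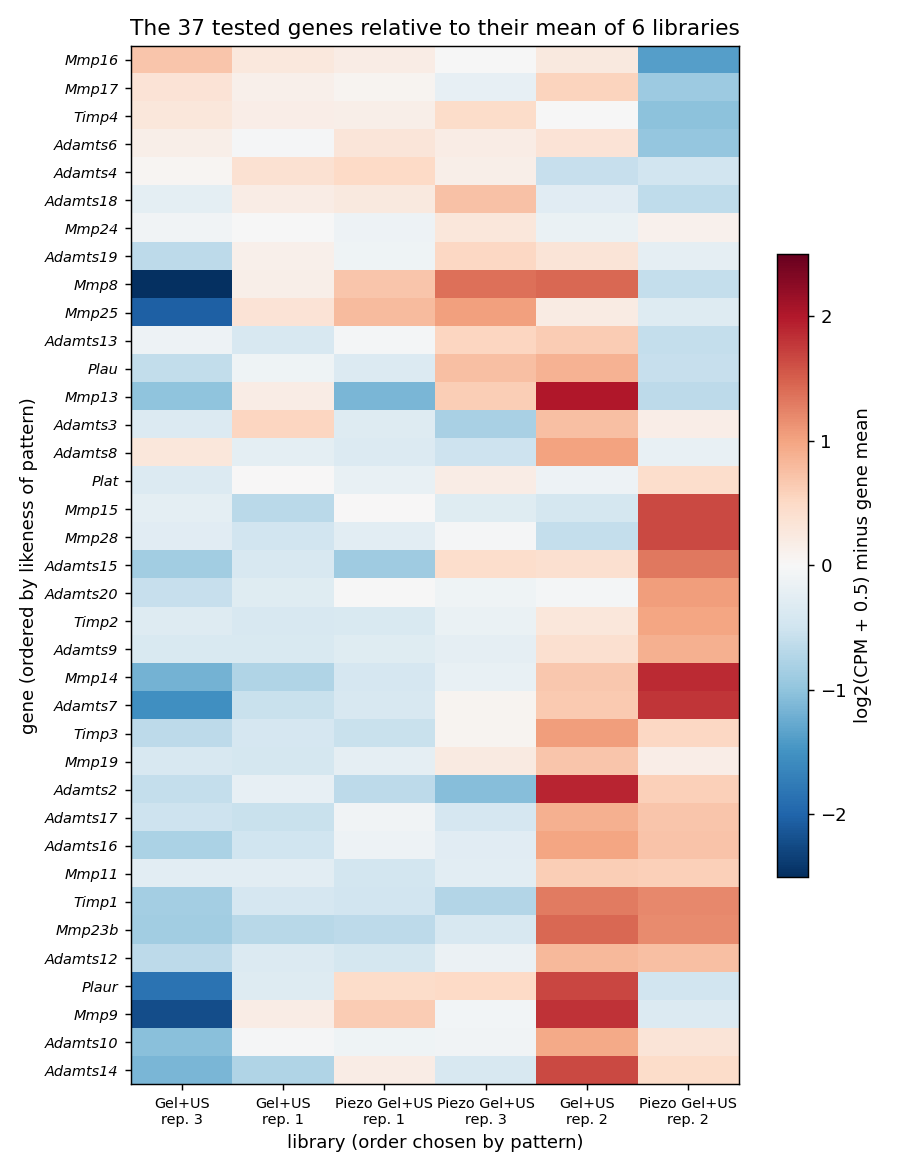
Values of log2(CPM + 0.5) for the 37 tested genes, each minus its mean over the 6 libraries, with red for higher and blue for lower. The libraries are ordered by pattern, not by group: Mmp15 and Mmp28 are red in Piezo Gel+US replicate 2, Mmp16 and Timp4 are blue there, and Mmp8, Mmp9, Mmp25 and Plaur are darkest blue in Gel+US replicate 3.

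The MMPs of neutrophil granules had wide ranges within Gel+US. Mmp8, the neutrophil collagenase, measured 8.22, 20.9 and 0.451 CPM in Gel+US (164, 376 and 9 counts) and 12.2, 4.68 and 20.0 CPM in Piezo Gel+US. Mmp25, or leukolysin, an MMP anchored on neutrophils, had 47, 38 and 1 counts in Gel+US and 64, 26 and 80 counts in Piezo Gel+US. Mmp9, the gelatinase of neutrophil and macrophage secretion, measured 4.51, 14.9 and 0.451 CPM in Gel+US and 6.40, 2.97 and 3.73 CPM in Piezo Gel+US. Gel+US replicate 3 was the lowest library for all of these, and Gel+US replicate 2 was the highest for Mmp8 and Mmp9, so the Piezo Gel+US values lay inside the Gel+US range except for Mmp25 in replicates 1 and 3. The log2 fold changes were 0.32 for Mmp8 (interval -2.29 to 2.93), 0.97 for Mmp25 (interval -1.47 to 3.41) and -0.60 for Mmp9 (interval -3.01 to 1.81). Without Gel+US replicate 2 that of Mmp9 was 0.81. Mmp8 had -0.26 when Gel+US replicate 3 was left out and -0.22 when Piezo Gel+US replicate 3 was. In 5 of the 37 genes (Mmp8, Mmp9, Mmp25, Plaur and Adamts7) Gel+US replicate 3 lay at or below 0.5 times the next lowest library, beside 3.00% of all genes. The highest library was at least 10 times the lowest, or the lowest at 0, in 7 of 37, beside 6.02% of all genes.

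The order of the 6 libraries in Mmp8 was the same as that of the summed neutrophil markers: Gel+US replicate 3 at 8.67 CPM of markers, Piezo Gel+US replicate 2 at 95.9, Gel+US replicate 1 at 112, Piezo Gel+US replicate 1 at 165, Piezo Gel+US replicate 3 at 225 and Gel+US replicate 2 at 282. The receptor Plaur followed this order too, while 0.322% of the tested genes outside the list did. None of the 7 neutrophil markers tested did so alone, and the comparison was chosen after the values were seen. S100a9, the most abundant marker of the list in the highest library, measured 1.05 CPM in Gel+US replicate 3 and 125 CPM in Gel+US replicate 2. Lcn2 and Camp had 0 counts in Gel+US replicate 3, and Ltf had at most 3 counts in any library. Other lists had their lowest sum in Gel+US replicate 3 and their highest in Gel+US replicate 2 as well. These were bone and cartilage (55.3 and 704 CPM), fibroblast (1207 and 8448 CPM), osteoclast (66.0 and 130 CPM) and mural markers (849 and 1519 CPM). The part of the neutrophil markers and of these lists in the values was not tested.

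**Figure D4:**
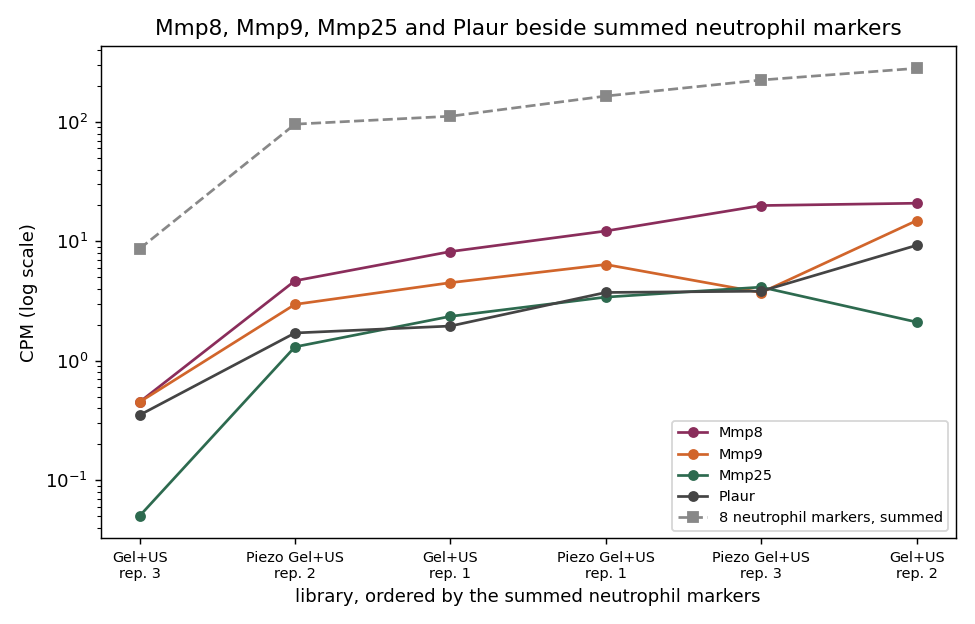
CPM of Mmp8, Mmp9, Mmp25 and Plaur (coloured lines) and the summed CPM of 8 neutrophil markers (grey dashed line) on a log axis, with libraries ordered by the marker sum. Mmp8 and Plaur rise at each step from Gel+US replicate 3 to Gel+US replicate 2, whereas Mmp9 and Mmp25 depart from the order at the right.

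Most of the MMP genes that lie side by side in the genome were close to silent. By the positions in the count table, for which no build is named, 7 of the 19 MMPs lie within 339011 bases of the same sequence, from Mmp13 at 3570990 to the end of Mmp7 at 3910000. Only Mmp8 and Mmp13 of these passed the filter. Mmp13, the collagenase of cartilage and bone, had 15, 71 and 1 counts in Gel+US and 0, 4 and 23 counts in Piezo Gel+US (a log2 difference of -1.75 with an interval of -5.46 to 1.97). The 0 counts of Piezo Gel+US replicate 1 allow up to 0.160 CPM by counting error alone. Mmp13 was highest in Gel+US replicate 2, and its log2 fold change was 0.20 without that library. Summed bone and cartilage markers (15 of 15 matched) were also highest there, 704 CPM against 55.3 to 194 CPM in the other libraries. Comp alone made up 423 CPM of the 704. The sums of neutrophil (282 CPM), fibroblast (8448 CPM), osteoclast (130 CPM), mural (1519 CPM) and ependymal markers (94.5 CPM) were highest in Gel+US replicate 2 too. The part of these lists was not tested. Mmp12, the macrophage elastase, had 5 counts in all 6 libraries together, Mmp27 had 4, Mmp10 and Mmp7 had 1 each and Mmp20, the enamel protease, had 0. Microglia and macrophage markers were present in every library, with sums of 244 to 929 CPM. Table rows without an MMP name whose protein matches are Mmp3, Mmp1a and Mmp1b lie in the same stretch, outside the 43, with 64, 0 and 1 counts in all. Mmp21, elsewhere in the genome, had 4 counts in all.

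Several genes of this cluster share a promoter feature. The motif TGANTCA, a loose form of the AP-1 binding motif (TGACTCA or TGAGTCA) of transcription factors that induce many MMP genes, was searched in the RefSeq promoters of the GRCr8 assembly, from 250 bases before to 50 bases after each gene start. It reads the same on both strands apart from the middle base, so that every match covers both. Promoters of 32 of the 43 genes were found by symbol, and they have 39 promoters, since some genes have several. The motif lies in 6 of the 39 promoters (15.4%), 1 for each of 6 genes, beside 7.33% of all 33469 promoters. The narrower motif, TGACTCA or TGAGTCA, lies in 5 of the 39 (12.8%), beside 4.63% of all, and the match of Mmp20, with A in the middle, is not of that form. Of these 6 genes, 5 belong to the MMP cluster. The promoters of the other cluster genes, Mmp8 and Mmp27, held no match, and Mmp8 had the most counts of the cluster (1257). The matches are shown with 17 bases on each side and the motif in capitals, to let the position and the flanks be compared between nearly silent and expressed genes:
Mmp13: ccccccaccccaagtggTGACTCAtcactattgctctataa
Mmp12: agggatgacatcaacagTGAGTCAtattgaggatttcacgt
Mmp10: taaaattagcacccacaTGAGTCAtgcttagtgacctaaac
Mmp7: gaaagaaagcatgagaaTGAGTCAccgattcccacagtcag
Mmp20: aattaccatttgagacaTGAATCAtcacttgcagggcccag
Plaur: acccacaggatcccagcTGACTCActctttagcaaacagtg

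All 6 lie on the plus strand of GRCr8: Mmp13 at chr8:12782746-12782786, Mmp12 at chr8:12866548-12866588, Mmp10 at chr8:12974629-12974669, Mmp7 at chr8:13132946-13132986, Mmp20 at chr8:13074166-13074206 and Plaur at chr1:89181263-89181303. The motif starts 61 (Mmp10) to 96 (Mmp20) bases before the gene start. Genes with the motif ranged from 0 counts in all libraries for Mmp20 to 391 counts for Plaur, and no binding was measured. The match is a description of these letters only.

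Other MMPs were low. Mmp19, a secreted protease of basement membrane proteins, measured 6.91, 15.8 and 7.12 CPM in Gel+US and 8.11, 10.9 and 11.3 CPM in Piezo Gel+US. Its Piezo Gel+US values lay within the Gel+US range, and the log2 fold change was 0.02 (interval -0.89 to 0.93) and -0.05 with library totals in place of TMM factors. Leaving out Gel+US replicate 1 gave -0.20, Gel+US replicate 3 gave -0.19, Piezo Gel+US replicate 2 gave -0.04 and Piezo Gel+US replicate 3 gave -0.07, and leaving out Gel+US replicate 2 gave 0.51. Mmp23b and Mmp11 averaged 4.93 and 0.926 CPM per kb, were highest in Gel+US replicate 2 and next highest in Piezo Gel+US replicate 2, and had log2 fold changes of -0.08 and -0.07. Those were 1.16 and 0.36 when Gel+US replicate 2 was left out, and above 0 also when Piezo Gel+US replicate 1 (0.22 and 0.14) or replicate 3 (0.19 and 0.08) was. Mmp11, Mmp23b, Mmp24 and all ADAMTS genes named with values below other than Adamts2, Adamts4, Adamts8, Adamts9, Adamts10 and Adamts20 were chosen for naming after their values were seen. The unnamed row matched to the stromelysin Mmp3 had 2 to 31 counts per library, and a pair of unnamed rows matched to Timp1 had 16 and 6 counts in all. Mmp2, Adamts1 and Adamts5 are not analysed here.

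Among the ADAMTS genes, those that cut brain proteoglycans were led by Adamts4. Adamts4, an aggrecanase that also cuts brevican, measured 91.2, 46.9 and 72.7 CPM in Gel+US and 99.3, 50.1 and 77.3 CPM in Piezo Gel+US. The libraries with equal replicate numbers were close, and both replicates 2 were lowest. The fitted log2 fold change was 0.11 (interval -0.69 to 0.90), and it was -0.12 when Gel+US replicate 2 was left out and -0.15 when Piezo Gel+US replicate 1 was. Summed oligodendrocyte markers were lowest in the same pair of libraries, 10342 CPM in Gel+US replicate 2 and 8787 CPM in Piezo Gel+US replicate 2 against 16939 to 20553 CPM in the others. Neuron sums (2470 and 1896 CPM against 4149 to 17750) and astrocyte sums (2983 and 2084 CPM against 3605 to 4342) were lowest in this pair too, and the part of these markers was not tested. Of the 37 genes, 3 had their lowest values in both replicates 2 (Adamts4, Timp4 and Adamts18), beside 19.5% of all genes.

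Adamts20 and Adamts9, which cut versican, were highest in Piezo Gel+US replicate 2. Adamts20 measured 34.1, 40.9 and 28.0 CPM in Gel+US and 41.5, 87.2 and 38.8 CPM in Piezo Gel+US, with an overlap through Gel+US replicate 2. Its log2 difference was 0.70 (interval -0.14 to 1.54), and 0.22 without Piezo Gel+US replicate 2. Adamts9 measured 15.4, 26.8 and 15.3 CPM in Gel+US and 16.1, 37.9 and 17.1 CPM in Piezo Gel+US. The replicates 2 were high in both groups, and the log2 fold change was 0.31 (interval -0.68 to 1.29) and -0.22 without Piezo Gel+US replicate 2. Adamts8, another proteoglycan protease, had 12, 38 and 22 counts in Gel+US and 10, 13 and 8 counts in Piezo Gel+US (a log2 difference of -1.24 with an interval of -2.61 to 0.14). Its groups overlapped by little, since Piezo Gel+US replicate 2 at 0.654 CPM lay above Gel+US replicate 1 at 0.601 CPM. Adamts15 lies 17370 bases from Adamts8 in the deposited coordinates and differed from it in pattern, with 29.3 CPM in Piezo Gel+US replicate 2 as the highest value, 5.92 to 15.7 CPM in the other libraries and a log2 fold change of 0.77, which was 0.11 without Piezo Gel+US replicate 2.

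The procollagen proteases were lower in the Piezo Gel+US means and were highest in Gel+US replicate 2. Adamts2, which removes the amino-terminal propeptide of fibrillar procollagens, measured 23.8, 104 and 17.8 CPM in Gel+US and 17.1, 41.8 and 12.9 CPM in Piezo Gel+US. Gel+US replicate 2 stood apart, and the log2 fold change was -1.02 (interval -2.86 to 0.82) and 0.19 without that library. Within replicate numbers Piezo Gel+US was lower in 3 of 3 pairs, as it was for Adamts3, Adamts8, Mmp11, Mmp16 and Mmp17. The share of all genes with such pairs is not given here. For Adamts2 the fit with the replicate block gave -0.76 (edgeR unadjusted p 0.0172, adjusted p 0.855). Adamts3 and Adamts14, its relatives, had log2 fold changes of -0.73 and -0.40. An unnamed row matched to ADAMTS3, outside the 43, had 103 counts and a log2 fold change of -0.86. For Adamts3 reads may be split between these rows. The value of Adamts3 stayed below 0 when any library was left out, and that of Adamts14 was 1.39 without Gel+US replicate 2. Adamts10, which binds fibrillin, measured 65.3, 129 and 31.7 CPM in Gel+US and 61.9, 82.7 and 62.2 CPM in Piezo Gel+US (a log2 difference of -0.12 with an interval of -1.25 to 1.00, and 0.50 without Gel+US replicate 2). Adamts7 and Adamts12, which cut cartilage oligomeric matrix protein, had log2 fold changes of 1.07 and 0.08, and that of Adamts12 changed sign when replicate 1 (-0.15) or 3 (-0.25) of Gel+US or replicate 2 of Piezo Gel+US (-0.45) was left out. Adamts7 was 31.5 CPM in Piezo Gel+US replicate 2 and 2.71 to 14.1 CPM in the other libraries, and its log2 fold change was 0.06 without that library. Adamts6, Adamts13, Adamts16, Adamts17, Adamts18 and Adamts19 had log2 fold changes from -0.22 to 0.59, all with intervals that include 0. Each of these 6 changed sign when at least 1 library was left out. Adamts16 went from 0.07 to 1.34 without Gel+US replicate 2 and to -0.50 without Piezo Gel+US replicate 2, and Adamts17 from 0.04 to 0.71 and -0.38. Adamts13 went from -0.07 to 0.31 without Gel+US replicate 2, Adamts6 from -0.22 to 0.08 without Piezo Gel+US replicate 2, and Adamts18 and Adamts19 from 0.59 and 0.12 to -0.09 and -0.20 without Piezo Gel+US replicate 3. Adamts13, the protease of von Willebrand factor, lay between 3.97 and 9.89 CPM.

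Timp2, which binds Mmp14 as well as blocking MMPs, was the most abundant gene of the set per kb. It measured 446, 710 and 465 CPM in Gel+US and 448, 1159 and 523 CPM in Piezo Gel+US. Both replicates 2 were high, and the log2 fold change was 0.39 (interval -0.61 to 1.40) and -0.16 without Piezo Gel+US replicate 2. Timp3, the inhibitor that stays bound to matrix and also blocks ADAMTS proteases, measured 260, 718 and 222 CPM in Gel+US and 237, 497 and 367 CPM in Piezo Gel+US. The log2 fold change was -0.12 (interval -1.35 to 1.10), and it was 0.59 when Gel+US replicate 2 was left out and 0.09 when Piezo Gel+US replicate 1 was.

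Timp1, an inhibitor known to be induced by injury, measured 25.9, 86.4 and 19.1 CPM in Gel+US and 25.03, 81.14 and 20.9 CPM in Piezo Gel+US. Both groups had nearly the same values by replicate number, with the replicates 2 far above the rest. Between groups the log2 fold change was -0.05 (interval -1.80 to 1.71), and it was 0.90 when Gel+US replicate 2 was left out, 0.19 when Piezo Gel+US replicate 1 was and 0.28 when Piezo Gel+US replicate 3 was. Timp4, an inhibitor found in brain and heart, was low where Timp1 was high. It measured 51.1, 45.1 and 55.1 CPM in Gel+US and 50.5, 22.0 and 62.4 CPM in Piezo Gel+US, lowest where Timp2 was highest. The fitted log2 fold change was -0.17 (interval -1.04 to 0.71), and 0.15 without Piezo Gel+US replicate 2. Timp1 made up 8.19% to 19.9% of the summed TIMP level per kb and Timp4 1.66% to 9.94%, and the smallest Timp4 share was in Piezo Gel+US replicate 2.

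A share of these genes was highest in the libraries with the highest fibroblast marker sums. In 14 of the 37 genes (37.8%, beside 17.8% of all genes) the highest libraries were Gel+US replicate 2 and Piezo Gel+US replicate 2, the libraries with fibroblast marker sums of 8448 and 6515 CPM against 1207 to 2070 CPM in the others. These were Timp1, Timp2, Timp3, Mmp11, Mmp14, Mmp23b and 8 ADAMTS genes, among them Adamts2, Adamts9 and Adamts10. Gel+US replicate 2 alone was the highest library for 21 of 37 (56.8%, beside 19.0% of all genes), and Gel+US replicate 3 was the lowest for 18 of 37 (48.6%, beside 26.6%). These counts were chosen after the values were seen, and the part of the fibroblast markers in them was not tested. The fibroblast marker Thy1 went the other way and was lowest in both replicates 2 (118 CPM in Gel+US and 101 CPM in Piezo Gel+US). The marker Fn1 was highest in Gel+US replicate 2 (1232 CPM). Within Piezo Gel+US it was lowest in replicate 2, at 278 CPM against 340 and 472 CPM. Mural sums (1519 and 1401 CPM against 849 to 1188 CPM) were highest in both replicates 2 too. So were skeletal muscle sums (26.4 and 104.5 CPM against 6.62 to 12.5 CPM), and the part of these lists was not tested. Mmp23b had the same order of libraries as the fibroblast sum, beside 0.762% of the tested genes outside the list. Of the 10 fibroblast markers tested, 1 did so alone. Piezo Gel+US replicate 2 was the highest library for 9 of 37 (24.3%, beside 29.2% of all genes) and the lowest for 6 of 37 (16.2%, beside 28.4%).

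The ratio of inhibitors to MMPs on the per-kb scale lay lower in every Piezo Gel+US library than in any Gel+US library. The summed TIMP level divided by the summed MMP level, a ratio within each library that does not depend on library scaling, was 3.13, 3.74 and 3.01 in Gel+US and 2.34, 2.06 and 2.71 in Piezo Gel+US (3.30 ± 0.39 and 2.37 ± 0.32, SD, n = 3 each). The groups did not overlap, and no test was made since the ratio was chosen after its values were seen. It did not rest on Mmp15: without that gene the ratios were 4.77, 4.92 and 5.58 in Gel+US and 4.05, 4.08 and 4.00 in Piezo Gel+US. It did rest on Timp2 and on the length scale. Without Timp2 the groups overlapped (1.24 to 2.15 and 0.798 to 1.26), and so they did with counts not divided by gene length (2.84 to 3.97 and 1.95 to 2.96). MMPs other than Mmp15 were not left out in turn. Mmp2 is not among the 43 genes, so the MMP sum and the ratio leave it out.

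**Figure D5:**
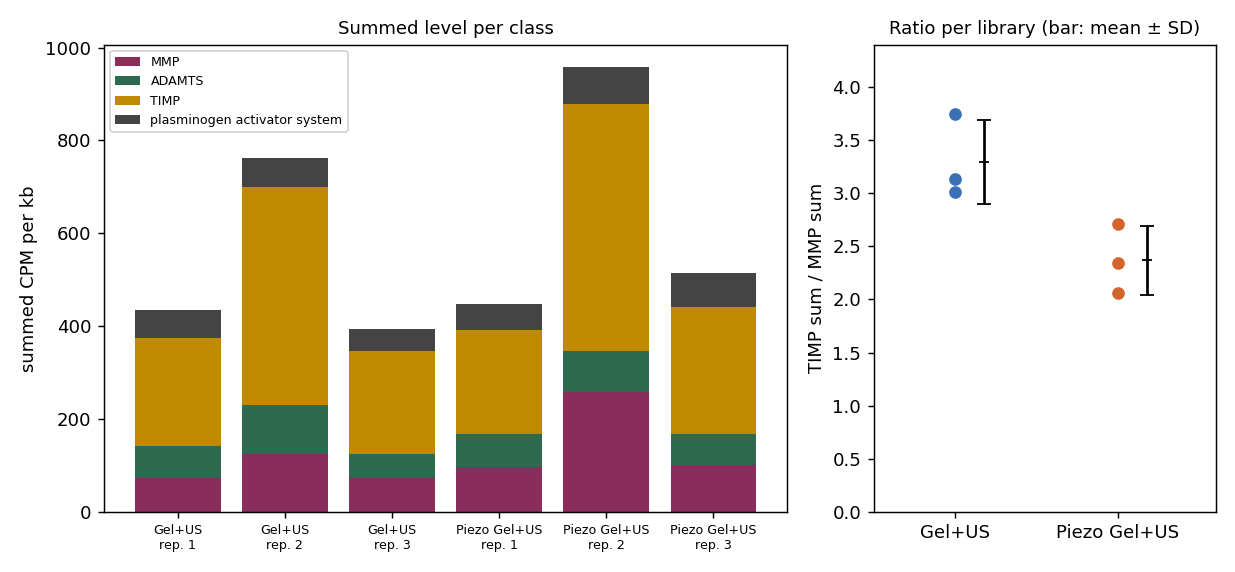
Left, summed CPM per kb of the MMP, ADAMTS, TIMP and plasminogen activation genes in each library, stacked from 0. Right, the TIMP sum divided by the MMP sum in each library (points) with mean ± SD, 3.01 to 3.74 in Gel+US and 2.06 to 2.71 in Piezo Gel+US.

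Plasminogen activation was carried by Plat. Plat, tissue plasminogen activator, measured 147, 133 and 115 CPM in Gel+US and 128, 199 and 165 CPM in Piezo Gel+US, and the groups overlapped through Piezo Gel+US replicate 1. Its log2 difference was 0.32 (interval -0.20 to 0.83) and stayed between 0.15 and 0.45 when any library was left out. Plau, urokinase, measured 3.01, 6.39 and 1.96 CPM in Gel+US and 2.46, 2.01 and 5.85 CPM in Piezo Gel+US, with Piezo Gel+US inside the range of Gel+US. The log2 fold change was -0.14 (interval -1.58 to 1.31), and it was 0.46 when Gel+US replicate 2 was left out, 0.04 when Piezo Gel+US replicate 1 was and 0.13 when Piezo Gel+US replicate 2 was. Plaur, the urokinase receptor on leukocytes, measured 1.95, 9.28 and 0.351 CPM in Gel+US and 3.74, 1.71 and 3.83 CPM in Piezo Gel+US (a log2 difference of -0.32 with an interval of -2.73 to 2.10, and 1.42 without Gel+US replicate 2). All 3 were lowest in Gel+US replicate 3.

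Partners of these enzymes outside the set did not pass the test either. Of the other genes of the plasmin system 10 of 13 were tested, 4 above and 6 below a log2 fold change of 0 (median -0.03), and 0 were called. Serpine2, an inhibitor of plasminogen activators in neural tissue, lay between 383 and 537 CPM (log2 fold change 0.13). Plasminogen itself, Plg, was at 0.251 to 4.28 CPM. Of the other regulators of metalloproteinases 13 of 14 were tested, 6 above and 7 below 0 (median -0.02), and 0 were called by edgeR, with 1 at an unadjusted p below 0.05. Reck, a membrane-anchored inhibitor of MMPs, measured 64.5, 156 and 58.7 CPM in Gel+US and 74.8, 306 and 126 CPM in Piezo Gel+US (a log2 difference of 0.86 with an interval of -0.59 to 2.31). Both replicates 2 were the highest of their groups. Bsg, a membrane protein that induces MMPs, had a log2 fold change of 0.11 (interval -0.43 to 0.66). Of the matrix proteins that these enzymes cut, 22 of 24 listed were tested, 10 above and 12 below 0 (median -0.10), and 0 were called.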

How the data were processed

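The authors deposited whole-number raw counts per gene, not normalised. Per the submitters' processing notes, the tools were DESeq2 1.20.0, featureCounts 1.5.0-p3, HISAT2 2.0.5 and fastp 0.19.7, and their roles are not given there. Libraries kept strand information, per the labels' protocols, but use of strand in counting and the genome build are not given in the sources used here. Matching the table to RefSeq GRCr8 by identifier gave 0 matches, and by symbol 42 of the 43 genes. Positions differ too: Mmp13 starts at 3570990 in the table, and the stretch shown of its GRCr8 promoter begins at 12782746. The counts thus rest on an annotation other than that of GRCr8, and whether it is one of Rattus norvegicus was not established. Cluster positions, gene lengths, unnamed rows and absent genes depend on it. The GRCr8 promoters were joined to the table by symbol alone. The deposited gene length in bases gave the per-kb scale.

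Counts were tested with edgeR 4.0.16 in R 4.3.3: TMM factors, filterByExpr (minimum count 10, minimum total 15), robust quasi-likelihood F test, group as the only term, Benjamini-Hochberg adjustment over 17066 genes. The 1355 rows without a symbol were kept, since each has an identifier. Errors are SD over 3 libraries labelled biological replicates, p-values measure the spread between these libraries, and 95% intervals come from the fit. The fitting procedure was tested on simulated data, where detection of changed genes was required only at a dispersion lower than that of the data. At the dispersion of the data only the median fold changes were checked, so the test does not show the power of this comparison. Alternatives were DESeq2 1.42.0, other scaling, no filter, a replicate block and leaving out each library.

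The genes and the 20 lists were chosen with earlier results of these data known. Of 232 list entries, 206 were matched by symbol. Named genes are a fixed set of 19, of which 15 were in the table, plus those of highest level, lowest p and widest range.

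Same-numbered libraries deviated together from their group means (correlations of 0.253, 0.296 and 0.251 for replicates 1 to 3). By the rule used here they count as paired, and the replicate block is the fit that pairs them. The deviations within a group cancel out, so the 3 correlations depend on each other. Correlations between libraries of unlike number were not computed, and the main test does not pair libraries. The labels do not say what a number marks.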

Additional observations from a re-analysis of the deposited data

How the results depend on the processing

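No gene of the set and no other gene was called under any alternative run, and the replicate block changed no call. The edgeR fit gave 359 genes an unadjusted p below 0.05, against 986 with the replicate block (Mmp14, Adamts2, Adamts20 and Adamts7 of the set), 652 with DESeq2 and 145 to 746 with a library left out. The median log2 fold change of the 37 genes was 0.02 and ran from -0.24 to 0.59 with a library left out, and the number above 0 was 19 and ran from 13 to 30, and with the replicate block they were 0.14 and 25. With the replicate block the log2 fold changes of Mmp9, Timp3, Plaur and Adamts10 changed sign, to 0.29, 0.018, 0.59 and 0.079, those of Adamts14 and Mmp23b changed to 0.30 and 0.10, and library totals without TMM factors turned that of Mmp19 to -0.047. Leaving out 1 library turned the sign of 15 named genes at least once. Their ranges were -0.26 to 1.5 for Mmp8, -1.17 to 0.81 for Mmp9, -3.86 to 0.20 for Mmp13, -0.12 to 1.75 for Mmp14, -0.20 to 0.51 for Mmp19, -0.15 to 0.32 for Adamts4 and -0.22 to 0.61 for Adamts9. They were -0.94 to 0.90 for Timp1, -0.16 to 0.63 for Timp2, -0.43 to 0.59 for Timp3, -0.48 to 0.15 for Timp4, -0.76 to 0.46 for Plau, -0.88 to 1.42 for Plaur, -0.51 to 0.50 for Adamts10 and -1.71 to 0.19 for Adamts2. Of the 37 genes, 12 kept their sign in all 6 such fits, 8 above and 4 below 0. The cause of these changes was not tested. Depth limits Mmp13, Mmp25, Adamts8, Adamts16, Adamts18 and the 6 MMPs under the filter, where a library held few or 0 counts. Adamts18 had 3 to 23 counts per library, and Adamts16 had 7 in its lowest library. In Gel+US replicate 3, Mmp8 and Mmp9 had 9 counts each and Plaur had 7.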

Other observations

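Of 13 ADAM genes listed, membrane proteases that shed cell-surface proteins, 10 were tested, 5 above and 5 below a log2 fold change of 0 (median 0.02), and 0 were called by edgeR (0 also at an unadjusted p below 0.05). Adam10, the main sheddase of Notch and cadherins, lay between 217 and 250 CPM in 5 libraries and at 465 CPM in Piezo Gel+US replicate 2. Adam8, a leukocyte ADAM, measured 6.51, 19.7 and 2.06 CPM in Gel+US and 16.0, 7.29 and 22.4 CPM in Piezo Gel+US, lowest in the same library as Mmp8. Adam22 and Adam23, which bind synaptic adhesion proteins and do not cut, were highest in Gel+US replicate 3 at 194 and 271 CPM and lowest in Piezo Gel+US replicate 2 at 43.6 and 55.0 CPM.

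Lysosomal cathepsins and their inhibitors had 9 of 12 genes tested, 2 above and 7 below 0 (median -0.07), with 0 called. Ctsk, the collagen-cutting cathepsin of osteoclasts and fibroblasts, measured 73.4 CPM in Gel+US replicate 2 and 9.32 to 17.4 CPM in 4 libraries, and Piezo Gel+US replicate 2 was the second highest with 994 counts. Of 6 ADAMTS-like proteins, which lack the protease domain, 4 were tested and 3 lay above 0 (median 0.16), with 0 called. Of 11 astacins and other metalloendopeptidases 7 were tested, 4 above and 3 below 0 (median 0.03), with 0 called. Tll1, a procollagen and chordin protease, was at 66.8 CPM in Piezo Gel+US replicate 2 and at 8.17 to 12.4 CPM in the other libraries.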
